A study of Mus musculus with 2 samples.

Results

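The regions described here are the last 1197 rows of a deposited table of 23946 mouse genomic regions, with only autosomes (chromosomes 1 to 19) kept. This left 1185 regions, 4.95% of the table. They were chosen by their place in the table and not by a measured value, and the sources used here do not say what the order means. The table holds the ChIP-seq signal (sequenced DNA from immunoprecipitated chromatin) of H3K9me2 in a 10 kb window of 50 bins of 200 bp around each region. Emerald-positive cells (high fraction) and Emerald-negative cells gave 1 library each. Both come from MC1-ZE7, a mouse embryonic stem (ES) cell line of strain 129S6/SvEvTac grown feeder-free with leukemia inhibitory factor, and were sorted by the fluorescence of the reporter protein Emerald. The series names these populations Zscan4 positive and Zscan4 negative. With 1 library per population there is no replicate and no test between the libraries. Regions sharing a library are not replicates. The 9277 autosomal regions in rows 4789 to 14364, here called the comparison rows, were measured in the same way.

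H3K9me2 is dimethylation of lysine 9 on the tail of histone H3. The enzymes G9a (Ehmt2) and GLP (Ehmt1) write the mark as a complex, and demethylases of the Kdm3 family remove it. In ES cells it covers broad domains of silent, often lamina-associated chromatin, and it is usually low at active promoters and enhancers. Zscan4 genes encode zinc finger proteins linked to telomere upkeep, and a small and changing share of ES cells expresses them. No genes are named in the table, so regions are named by their identifier and mm9 position.

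H3K9me2 reads were more numerous in the windows at the end of the table than in the comparison rows, in both libraries. Emerald-positive cells had a median of 9 reads per window (quartiles 5 and 14) at the end of the table, against 6 (quartiles 3 and 11) in the comparison rows. Emerald-negative cells had 11 reads (quartiles 6 and 18) against 8 (quartiles 4 and 13). These are 1.5 and 1.38 times the comparison medians. Over both libraries the median was 20 reads against 14, and 16 for all autosomal regions. The means differed by less, with 10.6 reads (exact Poisson interval 10.4 to 10.8) against 8.21 (8.15 to 8.26) in Emerald-positive cells and 12.8 (12.6 to 13.0) against 10.1 (10.1 to 10.2) in Emerald-negative cells. In all, 12519 reads of the Emerald-positive and 15212 reads of the Emerald-negative library fell in these windows. All intervals are 95% intervals that cover counting error only. Without molecular identifiers, reads cannot be taken as independent molecules, and no test of the difference between the 2 sets of regions was made.

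The higher level was found on every autosome. The median over both libraries exceeded that of the comparison rows on 19 of 19 chromosomes, by 1.25 times (chromosomes 11 and 14) to 1.83 times (chromosome 2). Chromosome 8 had the highest median at the end of the table, 29 reads against 18 in the comparison rows. Chromosome 11 had the lowest, 12.5 against 10. Few windows were very rich in reads: 4 of the 1185 held over 100 reads (0.338%), near the background of 0.536% over all autosomal regions. At the other end, 13 windows had no Emerald-positive read and 3 had no Emerald-negative read, where a count of 0 still allows as many as 3 reads.

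At the edge of the set, the 100 rows just before it had a median of 15 reads over both libraries, and its first 100 rows had 20. Blocks of 100 rows inside the set differed by more than this, with medians from 16 to 25.5. The whole preceding block of 1197 rows had a median of 18 on autosomes. At the other end of the table, the first 1197 rows had a median of 28 and the next 1197 had 19. A level as high as that of this set was thus not particular to the end of the table. The last row outside the set held 6 reads and the first row inside it 40.

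The regions at the end of the table were narrower than the comparison rows and were often of a single fixed width. Their median width was 952 bp (quartiles 500 and 1476) against 1169 bp (quartiles 621 and 1732). A width of exactly 228 bp was the most common, with 98 regions (8.27%) against 272 (2.93%) in the comparison rows. A width of exactly 500 bp came next with 46 regions (3.88%) against 139. The 228 bp regions were close to the whole set in level, with a median of 8 Emerald-positive and 12 Emerald-negative reads. Regions of that width in the comparison rows had 5 and 7. The sources used here do not say how the widths were set.

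Along the mean profile, H3K9me2 dipped around the middle of these regions, less deeply than in the comparison rows, and a narrow spike rose from the dip. The central 10 bins, within 1000 bp of the middle, had a mean scaled signal per bin of 0.210 in Emerald-positive cells, and the 40 flanking bins had 0.243. In Emerald-negative cells the values were 0.188 and 0.242. The centre-to-flank ratio, in which 1 is an even level, was 0.862 (0.823 to 0.902) for Emerald-positive cells and 0.775 (0.742 to 0.809) for Emerald-negative cells. In the comparison rows it was 0.620 (0.608 to 0.634) and 0.590 (0.579 to 0.601). Without the 6 central peaks described below, the ratios were 0.717 (0.682 to 0.754) and 0.677 (0.647 to 0.709). The intervals still lay above those of the comparison rows without their own 5 such peaks, 0.605 (0.592 to 0.618) and 0.577 (0.566 to 0.588). Over all autosomal regions, peaks included, the ratios were 0.695 and 0.666, inside the intervals of this set without its peaks. For both libraries together, peaks included, the ratio was 0.814 in this set. It was 1.02 in the block of rows of equal length at the start of the table and 0.814 in the next. The other such blocks ranged from 0.560 to 0.688. A dip this shallow was thus not particular to the end of the table. As no input library was used, less of the mark and fewer mappable fragments at the middle cannot be told apart.

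**Figure D1:**
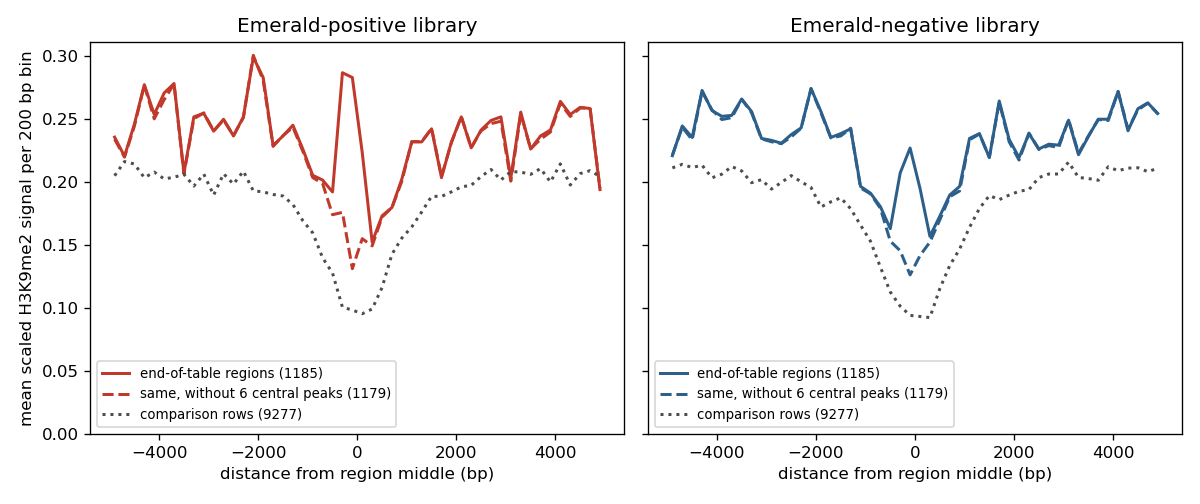
Mean scaled H3K9me2 signal per 200 bp bin (vertical axis) by distance from the region middle in bp (horizontal axis), for the Emerald-positive (left) and Emerald-negative (right) library. Solid lines are the 1185 regions at the end of the table, dashed lines leave out 6 central peaks and dotted lines are the 9277 comparison rows. The central spike is gone from the dashed lines, which still lie above the dotted ones within 1000 bp of the middle and in most flanking bins.

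The dip was shallower than in the comparison rows among windows with like numbers of reads as well. Among windows with 10 or fewer reads over both libraries, the centre-to-flank ratio of both libraries together was 0.750 (0.656 to 0.855) at the end of the table and 0.479 (0.460 to 0.500) in the comparison rows. From 21 to 40 reads it was 0.710 (0.676 to 0.746) against 0.631 (0.617 to 0.645). Over 40 reads, without the central peaks of either set, it was 0.744 (0.697 to 0.794) against 0.655 (0.636 to 0.674). From 11 to 20 reads the values were 0.589 (0.544 to 0.637) and 0.534 (0.518 to 0.550), and these intervals overlap. By chromosome, without the 6 peaks, the ratio was above that of the comparison rows on 17 of 19. Chromosomes 2 and 16 were the exceptions, with 0.610 against 0.690 and 0.757 against 0.766.

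In single windows, the centre was less often empty. No read of either library lay within 1000 bp of the middle in 199 of the 1185 windows (16.8%), against 31.6% of the comparison rows and a background of 25.4% over all autosomal regions. Since windows with few reads are more often empty, the share was also taken at like depth. From 11 to 20 reads, 19.1% of 371 windows were empty at the centre, against 28.7% in the comparison rows and 24.2% of all autosomal regions. From 21 to 40 reads, 5.19% of 424 were empty, against 6.57% and 6.15%, which is near the background. The centre was denser in reads than the flanks in 308 windows (26.0%), against 20.0% of the comparison rows and a background of 23.1%. At like depth this share was near the background, with 22.9% against 22.8% of all autosomal regions from 11 to 20 reads and 24.1% against 23.3% from 21 to 40 reads. The comparison rows had 19.9% and 20.9% there.

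The dip did not follow width once the central peaks were set aside. By quartiles of width over the autosomal table, the Emerald-positive ratios without peaks were 0.682 (up to 629 bp), 0.744 (to 1111 bp), 0.780 (to 1665 bp) and 0.642 (wider). The Emerald-negative ratios were 0.664, 0.677, 0.710 and 0.657. With the peaks, the narrowest quartile stood at 1.15 (1.06 to 1.23) and 0.968 (0.902 to 1.04), and all 6 peaks lay in regions of that quartile.

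A central H3K9me2 peak, with at least 20 reads within 400 bp of the middle at over 5 times the density beyond 2000 bp, was found in 6 of the 1185 regions. The background is 20 of 23339 autosomal regions (0.0857%). Of those 20, 30% lay in this set and 5 lay in the comparison rows. All 6 stood within the last 15 rows of the table. This definition of a peak was made with earlier results of these data known, and the counts are a description.

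The strongest was R09127 on chromosome 17 (4626258 to 4626811), which also had the most reads of the set, 285 for Emerald-positive and 229 for Emerald-negative cells. Within 400 bp of the middle it held 249 and 201 reads, and beyond 2000 bp it held 13 in each library. In the Emerald-positive library the 4 central bins, from lower to higher coordinate, had 111, 118, 20 and 0 reads. In the Emerald-negative library they had 75, 91, 35 and 0. Reads were therefore piled on the lower-coordinate side of the middle in both libraries.

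R18727 on chromosome 6 (125826799 to 125827327) is the very last row of the table and had 68 and 71 reads. Its 4 central bins had 0, 24, 26 and 1 Emerald-positive reads and 1, 20, 14 and 5 Emerald-negative reads. R18726, another peak on chromosome 6 (125567765 to 125568392), lay 259 kb away with 40 and 34 reads. Its central bins had 0, 7, 10 and 0 against 0, 8, 7 and 1. Each was the other's nearest member, and none of the 6 peaks had another member within 50 kb.

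The other 3 peaks all had the common width of 228 bp. R16863 on chromosome 5 (89965130 to 89965358) had 30 and 31 reads, of which 16 and 16 lay within 400 bp. R20317 on chromosome 7 (137506289 to 137506517) had 30 and 28 reads, with 14 and 8 within 400 bp. R16410 on chromosome 5 (22292157 to 22292385) had 27 and 30 reads, with 9 and 12 within 400 bp. Its density within 400 bp was 8.29 times that beyond 2000 bp, against 130 times for R09127 and 5.32 times for R20317.

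**Figure D2:**
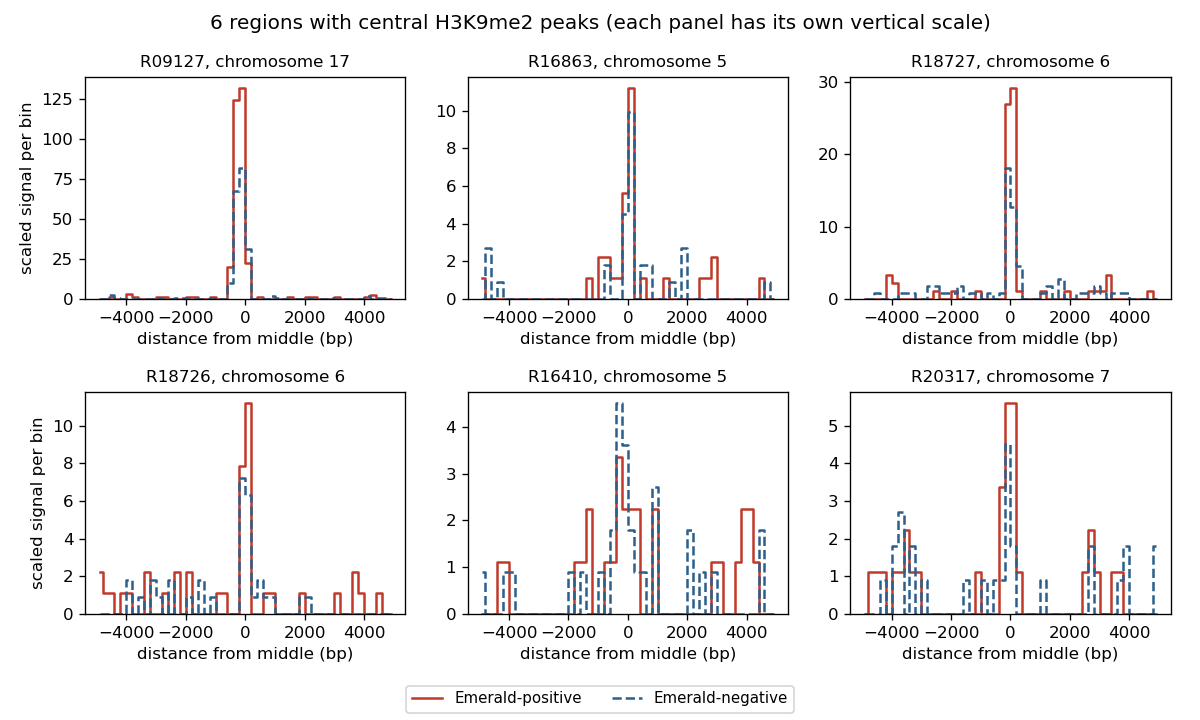
Scaled H3K9me2 signal per 200 bp bin (vertical axis, a separate scale in each panel) by distance from the region middle in bp (horizontal axis) at the 6 central peaks, Emerald-positive as solid and Emerald-negative as dashed lines. Both libraries have their highest bin within 400 bp of the middle in each panel, and R09127 reaches a scaled signal of 132 and 82.1.

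Pooled over the 6 peaks, the central 400 bp on each side held 356 Emerald-positive and 293 Emerald-negative reads. With each library scaled as deposited, the log2 ratio of Emerald-positive over Emerald-negative was 0.59 (0.37 to 0.82), and without R09127 it was 0.53 (0.12 to 0.95). Emerald-positive cells had the higher scaled central signal at 5 of the 6, and the lower one at R16410. Singly, the interval excluded equality at R09127, with a ratio of 1.54-fold (1.27 to 1.86), and at R18727, with 1.58-fold (1.03 to 2.46). At the other 4 it did not, from 0.932-fold (0.347 to 2.41) at R16410 to 2.17-fold (0.851 to 5.98) at R20317. Beyond 2000 bp the same 6 windows held 73 and 71 reads, a log2 ratio of 0.35 (-0.14 to 0.85). With no input library and the treatment of duplicate reads not given, the mark, copy number and mapping of reads cannot be told apart at these peaks.

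Of the 10 windows with the most reads, the 8 without a central peak had at most 3 reads within 400 bp of the middle. Over the 136 windows with over 40 reads and no central peak, the centre-to-flank ratio of both libraries together was 0.744, as given above. R19226 on chromosome 7 (27566104 to 27567792) had 92 Emerald-positive and 77 Emerald-negative reads, of which 51 and 40 fell in the single bin centred 1900 bp below the middle. R21229 on chromosome 8 (74252383 to 74252883) had 52 and 60 reads, with 20 and 17 in the bin at 4300 bp above it. R17127 on chromosome 5 (114627219 to 114627551) had 38 and 38 reads, with 18 and 18 in the bin at 4100 bp below it. In each of these 3 windows the 5 densest bins held 93.8% to 97.4% of the reads, and both libraries were stacked at the same place.

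R15505 on chromosome 4 (118215625 to 118217556) had 40 and 54 reads, 92 of them above the middle and 2 below. By contrast, 4 more of the 10 had reads spread over 34 to 41 of the 50 bins. They were R21473 on chromosome 8 (88796096 to 88796596) with 30 and 50 reads, R20648 on chromosome 8 (14330965 to 14332049) with 29 and 49, R21861 on chromosome 8 (115457572 to 115457862) with 38 and 39, and R09142 on chromosome 17 (6432481 to 6433593) with 36 and 63. Among the 142 windows over 40 reads, the 5 densest bins held over 50% of the reads in 13 (9.15%), of which 4 were central peaks. In the comparison rows this was 33 of 576 (5.73%), and over all autosomal regions 4.99%. This measure was chosen after the windows were seen.

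Along the deposited order, the central shape stood apart in the last 100 rows and nowhere else among these blocks, and the level varied without a jump. Counted in 12 blocks of 100 rows from the end (the earliest block has 97), the median over both libraries ranged from 16 to 23 reads in the 11 earlier blocks and was 25.5 in the last 100 rows. The centre-to-flank ratio in the last 100 rows was 2.31 (2.08 to 2.56) for Emerald-positive cells and 1.69 (1.53 to 1.87) for Emerald-negative cells. In the 11 earlier blocks it ranged from 0.592 to 0.808 and from 0.576 to 0.745. Without R09127 alone the ratios of the last 100 rows were 1.25 and 1.05, so this 1 window made up most of the excess over the other blocks. Without all 6 peaks they were 0.818 (0.694 to 0.959) and 0.749 (0.647 to 0.864). Both then stood just above the highest of the other blocks.

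**Figure D3:**
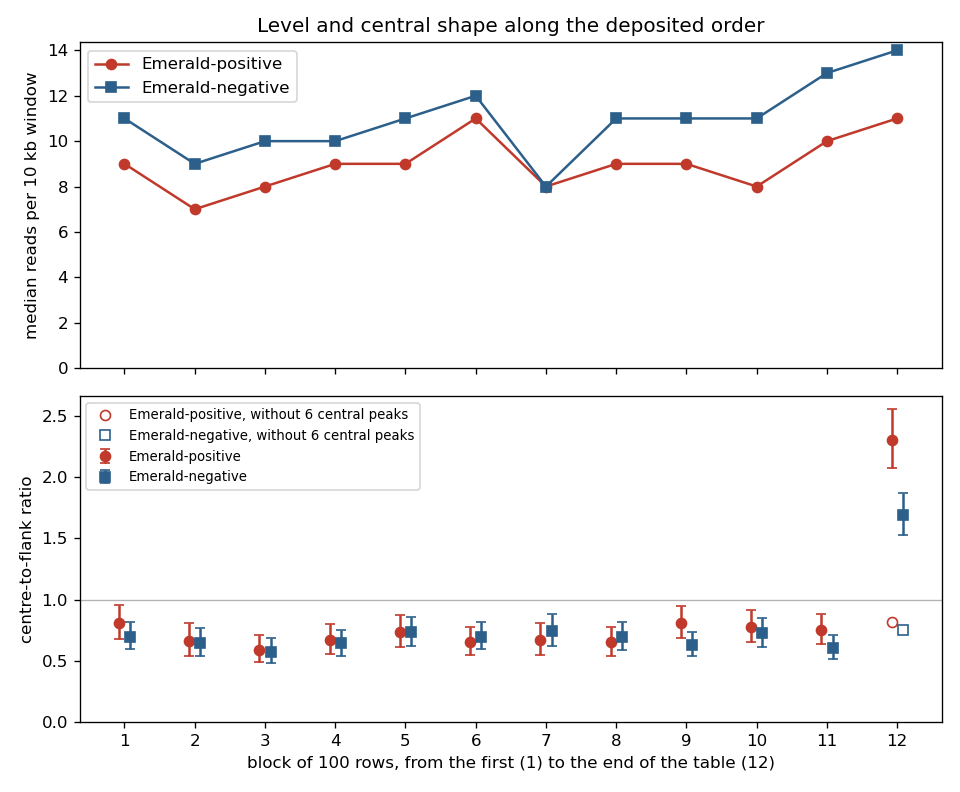
Median reads per 10 kb window (top) and centre-to-flank ratio with 95% counting intervals (bottom) in 12 consecutive blocks of the deposited order, Emerald-positive as circles and Emerald-negative as squares. The filled points of the last block stand at 2.31 and 1.69, and the open points, without 6 central peaks, at 0.818 and 0.749.

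Narrow regions gathered at the very end of the table. In the last 100 rows 22 regions were exactly 228 bp wide and the median width was 509 bp, against 76 of 1085 regions and 978 bp earlier in the set. In the last 15 rows 7 regions had that width. Only part of these carried a peak: of the 15, the 9 without one had a median of 19 reads and centre-to-flank ratios of 0.840 (0.466 to 1.43) and 0.698 (0.423 to 1.10). The last 5 rows included 3 of the peaks, R18727, R20317 and R16863. Of the remaining 2, R07813 on chromosome 15 (74350472 to 74350700) had 4 and 6 reads and none within 400 bp. R10643 on chromosome 18 (42528337 to 42528837) had 13 and 22 reads, 4 and 0 of them within 400 bp. Across the 1185 regions Spearman's rho of the row number was 0.10 with reads over both libraries, -0.16 with width, 0.037 with the central share of reads and -0.0077 with the log2 ratio between the libraries. These are descriptions over regions that share 2 libraries.

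In the genome, regions at the end of the table lay near one another more often than their share of the table. They make up 5.08% of the autosomal regions. Neighbours were counted from each member in turn, so a region near several members counts once for each. A pair of members counts from both sides. Of the 677 neighbours so counted under 10 kb from a member, 130 (19.2%) were members too, 3.78 times that share. From 10 to 50 kb it was 256 of 2407 (10.6%), or 2.09 times, from 50 to 200 kb 1.64 times, from 200 to 1000 kb 1.23 times and from 1000 to 5000 kb 1.16 times. The comparison rows, 39.7% of the autosomal regions, gave 1.25, 1.10, 1.05, 1.02 and 1.001 times their share at the same distances. A share that is already large cannot be exceeded by as much, so the 2 sets of ratios are not on an equal footing. Windows under 10 kb apart overlap and share reads, and 118 members (9.96%) overlapped another member.

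**Figure D4:**
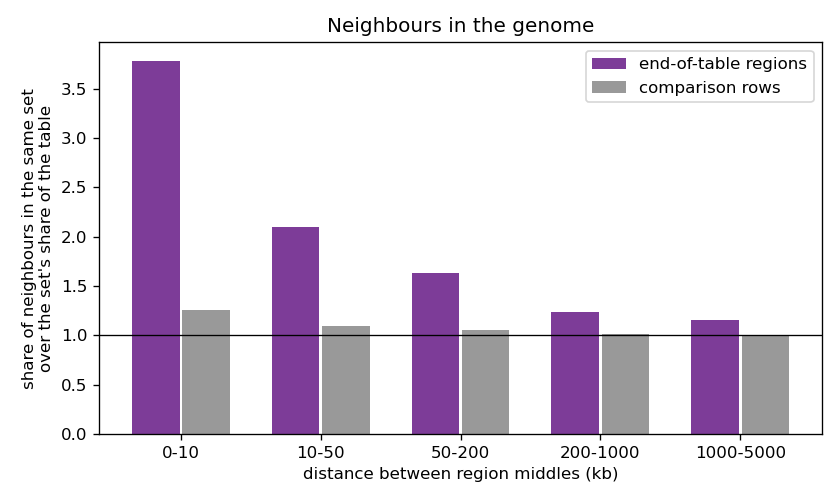
Share of neighbouring regions that belong to the same set, divided by the set's share of the autosomal table (vertical axis), by distance between region middles in kb (horizontal axis). The bars of the regions at the end of the table run from 3.78 under 10 kb to 1.16 beyond 1000 kb, and those of the comparison rows from 1.25 to 1.001; the line at 1 marks the set's share of the table.

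At short range, their surroundings were slightly less crowded than those of the comparison rows. The nearest other region of the table lay at a median of 14.2 kb (quartiles 5.88 and 40.7), against 10.8 kb (quartiles 4.37 and 29.9). From 10 to 50 kb away each had a mean of 2.03 other regions, against 2.33. Farther out this turned, with 24.8 against 23.9 from 200 to 1000 kb and 95.7 against 88.6 from 1000 to 5000 kb. The nearest other member lay at a median of 242 kb. Linked at 50 kb or less, 889 members stood alone and 296 (25%) formed 132 clusters: 106 pairs, 21 of 3, 4 of 4 and 1 of 5. Clustered members had fewer reads than single ones, a median of 7 and 9 (Emerald-positive and Emerald-negative) against 9 and 12. None of the central peaks was in a cluster. Without peaks the centre-to-flank ratios were 0.603 and 0.656 in clusters and 0.750 and 0.683 for single members.

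The cluster of 5 lay on chromosome 1 (90480670 to 90602912), spanned 122 kb and held 5 of the 6 table regions there. Along the chromosome, its members had 18, 10, 17, 14 and 4 Emerald-positive reads and 14, 12, 19, 8 and 6 Emerald-negative reads. The cluster on chromosome 14 (119107895 to 119151263) held 4 of 5 table regions, with 9, 19, 18 and 12 reads against 9, 16, 23 and 15. The cluster on chromosome 12 (12900222 to 12927811) also held 4 of 5, with 21, 16, 10 and 4 against 22, 24, 12 and 11. In these 3 clusters most members stood at or above the median of the set.

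A cluster of 4 on chromosome 3 (84442229 to 84470231), among 7 table regions, had 5, 6, 9 and 12 reads against 7, 6, 12 and 13. The poorest, on chromosome 4 (151663941 to 151726018), also 4 of 7, had 1, 2, 4 and 5 against 2, 2, 4 and 6. Proximity in the genome was not proximity in the table, as the rows of the cluster on chromosome 1 ran from 23114 to 23931. The pooled log2 ratio between libraries ranged from -0.12 (-0.67 to 0.42) on chromosome 12 to 0.41 (-0.13 to 0.94) on chromosome 1, and the interval of each of the 5 held 0.

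Members also had more reads than the other regions nearby. For the 814 members with a region outside the set 10 to 50 kb away, the median was 16 reads over both libraries, and the median of their neighbours' medians was 13. The member had more reads than its neighbours' median in 468 cases (57.5%) and fewer in 317. For the 5807 comparison rows with such a neighbour the medians were 12 and 14, with more reads in 39.8%. The set took from 4.22% (chromosome 13) to 6.99% (chromosome 15) of the table's regions on a chromosome. Chromosome 15 supplied 67 members, 5.65% of the set against 3.88% of the comparison rows, and chromosome 17 supplied 70, 5.91% against 4.90%.

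Between the libraries, the scaled H3K9me2 level of these regions was close to equal, and no difference was detectable over whole windows at this depth. The mean scaled signal per window was 11.8 for Emerald-positive and 11.6 for Emerald-negative cells. The pooled log2 ratio was 0.032 (-0.0023 to 0.066), against 0.0087 (-0.0051 to 0.022) in the comparison rows. Without the 6 central peaks it was 0.016 (-0.019 to 0.051). Each library was scaled by 1 constant, so a change by the same factor everywhere would not appear in these values.

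**Figure D5:**
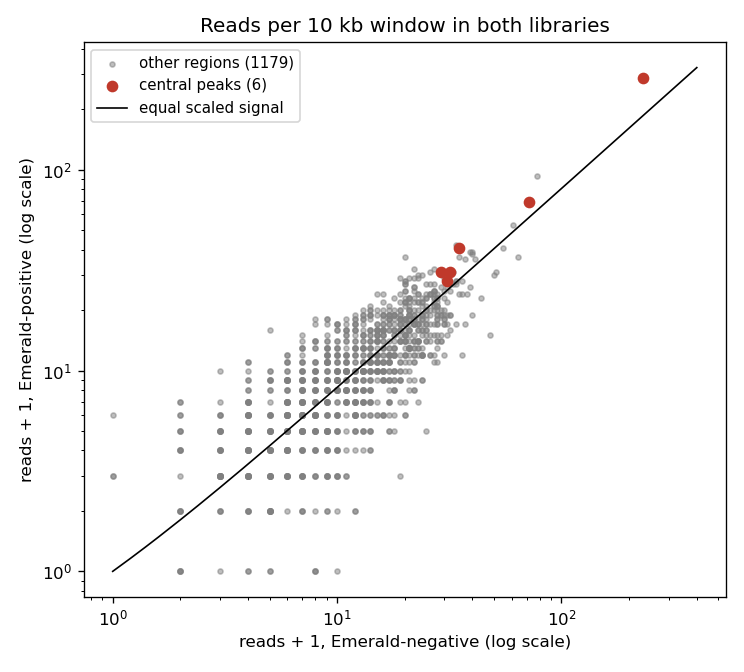
Reads + 1 per 10 kb window in the Emerald-positive (vertical) against the Emerald-negative library (horizontal), both on log axes, for 1185 regions; red points are the 6 central peaks and the line marks equal scaled signal. Points scatter on both sides of the line, and R09127, at 285 and 229 reads, is the red point farthest to the upper right.

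At the level of single regions, 1169 had a read in both libraries and a median log2 ratio of 0.040 (quartiles -0.35 and 0.39). Of these, 601 (51.4%) were higher in the Emerald-positive library, against 50.1% of all autosomal regions. A ratio of 2-fold or more in favour of Emerald-positive cells was seen at 41 (3.51%, background 5.39%) and in favour of Emerald-negative cells at 58 (4.96%, background 5.46%). In the comparison rows these shares were 5.73% and 5.89%. The counts depend on the pseudocount (the small value added to both signals). They were 64 and 88 with a smaller one and 13 and 19 with a larger one. On the central 10 bins alone they were 124 and 83 among 615 regions. The median member held 2 reads of both libraries there. As 1 read adds 1.12 to the Emerald-positive and 0.902 to the Emerald-negative signal, calls on so few reads favour Emerald-positive cells. No direction can be read from these central counts. Shares over all autosomal regions were not computed at these other settings. The whole windows also held more reads than the comparison rows (medians of 20 and 14). The part of read number in the 2-fold shares of whole windows was not tested. Relative to the pooled ratio of the whole table, the counting interval of a region lay entirely above it at 15 (1.27%, background 1.86%) and below it at 21 (1.77%, background 1.55%).

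The 5 highest ratios among members above the median of reads rested on few reads. R00655 on chromosome 1 (91414295 to 91414576) had 17 Emerald-positive and 7 Emerald-negative reads, a ratio of 3.02-fold (1.19 to 8.61). R05970 on chromosome 13 (64019372 to 64020899) had 16 and 7, or 2.84-fold (1.11 to 8.16). R00390 on chromosome 1 (59378434 to 59379898) and R16913 on chromosome 5 (93543162 to 93544199) each had 17 and 8, or 2.64-fold (1.08 to 7.07). At R16913, 6 Emerald-positive and 0 Emerald-negative reads lay within 400 bp of the middle. R16219 on chromosome 4 (154055810 to 154057701) had the most reads of the 5, 36 and 19, or 2.35-fold (1.31 to 4.34).

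Among members above the median of reads, the lowest ratio was that of R09079 on chromosome 16 (93911100 to 93911612), with 4 Emerald-positive and 24 Emerald-negative reads, or 0.207 (0.0522 to 0.603). R05232 on chromosome 12 (109791200 to 109791477) had 4 and 17, or 0.292 (0.0716 to 0.896). R15966 on chromosome 4 (139682308 to 139682536) and R17634 on chromosome 5 (144175168 to 144176874) each had 5 and 19, or 0.327 (0.0954 to 0.905). At R17634 the central 800 bp held 0 Emerald-positive and 6 Emerald-negative reads, the reverse of R16913. R08120 on chromosome 15 (92835560 to 92837563) had 6 and 22, or 0.339 (0.112 to 0.862). None of these 10 windows held a central peak.

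By distance from the middle, the largest ratio was at the centre. Within 400 bp the members had 999 Emerald-positive and 1032 Emerald-negative reads, a log2 ratio of 0.27 (0.14 to 0.39). Without the 6 peaks it was 0.11 (-0.042 to 0.27), and in the comparison rows 0.046 (-0.021 to 0.11). From 400 to 1000 bp the members had 0.078 (-0.033 to 0.19) and the comparison rows 0.084 (0.038 to 0.13). From 2000 to 3000 bp the members had 0.081 (0.0054 to 0.16), and from 1000 to 2000 bp, 3000 to 4000 bp and 4000 to 5000 bp the interval held 0. Between the libraries, the centre-to-flank ratios differed by a log2 ratio of 0.15 (0.063 to 0.24) with the peaks and 0.082 (-0.016 to 0.18) without them. It was 0.073 (0.032 to 0.11) in the comparison rows.

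By chromosome, the pooled ratio was above 0 on 13 of 19, and its interval excluded 0 on chromosome 3, with 0.17 (0.027 to 0.32), and on chromosome 17, with 0.15 (0.022 to 0.28). The value of chromosome 17 rested on R09127, and without this peak it was -0.022 (-0.18 to 0.13). Chromosome 18 had the lowest value, -0.10 (-0.29 to 0.086). Along the deposited order the ratio ranged from -0.089 to 0.14 over the 12 blocks, and the interval of 1 block excluded 0. In the last 100 rows it was 0.067 (-0.031 to 0.16), and without the 6 peaks -0.088 (-0.20 to 0.027).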

How the data were processed

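Per the labels, FACS-sorted cells were fixed in 1% formaldehyde for 10 min and sonicated to 150 to 450 bp. Chromatin was precipitated with 3 µg of antibody, and libraries were cut from a gel at 200 to 300 bp. In a second experiment 200 to 500 bp was selected after amplification, and the labels do not say which experiment the libraries come from. The deposited signal is, per the file headers, in 50 bins of 200 bp per region and library. The authors had scaled it: 100% of values above 0 were whole multiples (tolerance 0.02) of 1.12 for Emerald-positive and 0.902 for Emerald-negative cells, which gave whole reads. Equal scaled totals would make the Emerald-negative library 1.24 times as deep. The build is mm9, per the submitters' processing notes. The sources used here do not give the aligner, the treatment of duplicates or how regions were found.

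The ratio of a region was log2((Emerald-positive + 0.036)/(Emerald-negative + 0.036)) of mean signal, where 0.036 is the 5th percentile of nonzero means. It understates ratios of regions with few reads. The ratios printed for named regions are of scaled reads without it. Intervals were exact binomial (Clopper-Pearson) or Poisson, except that of the log2 ratio of centre-to-flank ratios, a normal approximation on the log scale. With 1 library per group no count model was run and no p-value is given. Named were the 10 members with the most reads, those with the densest centres, the 5 highest and 5 lowest ratios above the median of reads, the 5 largest clusters and the last 5 rows. The members and rules were chosen with earlier results of these data known. The interval of the ratio between libraries, the centre-to-flank ratio and the count of neighbours were tested on simulated data with independent reads. The other measures were not, and piled reads were not simulated. Calculations used scipy 1.17.1, pandas 2.3.3 and numpy 2.4.6 under Python 3.11.15, and plots matplotlib 3.10.9.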

Additional observations from a re-analysis of the deposited data

How the results depend on the processing

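Of 99 recomputed values, 53 stayed within the counting interval of the reported value, or within 1.5 times for counts of regions, and 46 moved beyond it. The median of 20 reads was 2 in the central 10 bins and 17 in the outer 40, as fewer bins hold fewer reads. The Emerald-positive centre-to-flank ratio of 0.862 was 0.717 without central peaks, 0.759 without R09127, 0.749 without members over 100 reads, 0.721 with a mean without the highest and lowest 1% per bin, 1.03 in the last 600 rows, 0.758 in a set with 2 times the rows, and 0.997 or 0.906 with a centre of 400 or 2000 bp. The Emerald-negative ratio of 0.775 was, in the same order, 0.677, 0.708, 0.704, 0.682, 0.878, 0.713, and 0.837 or 0.865. The log2 ratio of the 2 was 0.25 with a centre of 400 bp, and the pooled log2 ratio between libraries was 0.16 in the central bins. The 41 regions 2-fold or more higher and 58 lower (3.51% and 4.96% of 1169) became 64 and 88 with the pseudocount at the 1st percentile, and 13 and 19 at the 25th. Above the lower quartile of reads they were 24 and 34 (2.85% and 4.03% of 843). In the last 600 rows they were 18 and 27 (3.07% and 4.61% of 586). In the set with 2 times the rows they were 113 and 114 (4.88% and 4.93% of 2314). Counted on the central bins alone, they became 124 and 83 among 615 regions. Ratios there are of very few reads, at which the calls favour Emerald-positive cells, so these counts give no direction. Shares over all autosomal regions were not computed at these other settings. The share of members near another, 25%, was 9.96% at 10 kb, 46.9% at 200 kb, 14.6% in the last 600 rows and 35.5% in the set with 2 times the rows, since larger sets lie closer. The ratio of neighbours in the set to the table's share, 2.47 within 50 kb, was 3.78 within 10 kb, 1.88 within 200 kb and 1.94 in the set with 2 times the rows. The centre-to-flank ratios of the last 100 rows, 2.31 and 1.69, were 0.818 and 0.749 without central peaks, 1.25 and 1.05 without R09127, 3.62 and 2.75 in the last 50 rows, and 1.56 and 1.18 in the last 200. Leaving out R09127 was added after seeing the data, as were, for the last 100 rows only, leaving out the peaks and varying the length of the block. No paired analysis was possible because there is 1 library per population, so none could be left out either. For the changes whose construction is not named here, the cause was not tested. With medians of 9 and 11 reads, single regions are imprecise, and the counting interval excluded the pooled ratio of the table at 15 and 21 regions.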

Other observations

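The last 1197 rows also held 12 regions on the X chromosome, which were left out above, and none on the Y. They had 65 reads in each library, a median of 10.5 reads per window over both (range 2 to 22). The 298 X-linked regions of the comparison rows had a median of 9. The log2 ratio of Emerald-positive over Emerald-negative in the 12 regions was 0.31 (-0.21 to 0.83).

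The share of regions exactly 228 bp wide differed along the whole table. It was 0.0850% in the first 1197 rows, between 2.49% and 5.01% from the sixth to the nineteenth block of 1197 rows, and 8.27% in the last.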
